A study of Mus musculus with 16 samples.

Results

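The 34 genes described here make, carry and process the ceramides and related lipids of the epidermal barrier. They were taken by gene symbol from a table of 45777 mouse genes, all 34 were found, and all 34 were among the 19915 genes with enough reads to be tested. Ear skin RNA was compared by polyA RNA sequencing between 3 libraries of wild-type C57BL/6 mice given an antibody against oncostatin M (anti-OSM), a cytokine made by leukocytes, and 3 of mice given an antibody against Ly6G (anti-Ly6G), a neutrophil surface protein. The labels describe 16 libraries, and the 5 control and 5 MC903-only libraries were not analysed here. Both antibody groups had MC903 (calcipotriol, a vitamin D analogue that inflames skin) at 50 µM in 20 µL of ethanol, put on the 2 ears each day for 10 days. The anti-OSM mice had 20 µg of antibody per mouse by intradermal injection on alternate days. The anti-Ly6G mice had 200 µg per mouse by intraperitoneal injection 2 days before MC903 and 1 and 4 days after it. The series' design text names ovalbumin, which the protocol of these mice does not, and the labels used here name no isotype antibody, age or batch. Antibody, route, schedule and any batch thus cannot be told apart, and without MC903-only ears the data do not show which of the groups moved.

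The outermost layer of the skin holds water in with stacked lipid sheets of ceramides, cholesterol and free fatty acids. Keratinocytes build a ceramide from a sphingoid base and a fatty acid, lengthen and hydroxylate some of the fatty acids, store the products as glucosylceramides in lamellar granules and release them as they cornify. A part of the longest ceramides is oxidised and bound to the protein envelope of the dead cell, and loss of single enzymes of this route causes ichthyosis in humans.

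With anti-OSM, 3 of the 34 genes were higher and 4 were lower in edgeR's quasi-likelihood test at an adjusted p below 0.05. The acid lipases Lipm and Lipn and the ceramidase Asah1 were higher. The desaturase and hydroxylase Degs2, the omega-hydroxylase Cyp4f39, the sterol sulfotransferase Sult2b1 and the cross-linking enzyme Tgm1 were lower. Over all tested genes, 12.1% passed, 5.81% higher and 6.27% lower with anti-OSM. The 7 genes are 20.6% of the 34. The groups did not overlap for 10 of the 34 genes, against 35.0% of all tested genes, and the other 3 were Sdr9c7, higher with anti-OSM, and Sptlc1 and Elovl4, lower with anti-OSM. The median log2 fold change was -0.02 over the 34 genes and 0.01 over all tested genes. In 15 genes the fold change was positive and in 19 negative, and the range was -0.73 to 0.75. In all, 22 of the 34 genes (64.7%) lay within 0.3 of 0 on the log2 scale, as did 66.8% of all tested genes. Of the 27 genes that did not pass, 21 had a 95% interval wholly within 0.5 of 0 and 11 within 0.3, and the widest interval, of Fa2h, reached 1.18 from 0. Scaling on keratinocyte markers left 2 genes higher and 3 lower and made 23 of the 34 fold changes positive. It also gave 648 higher and 461 lower genes over the table, 58.4% of them higher, against 1157 and 1249 (48.1% higher) with the usual scaling.

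**Figure D1:**
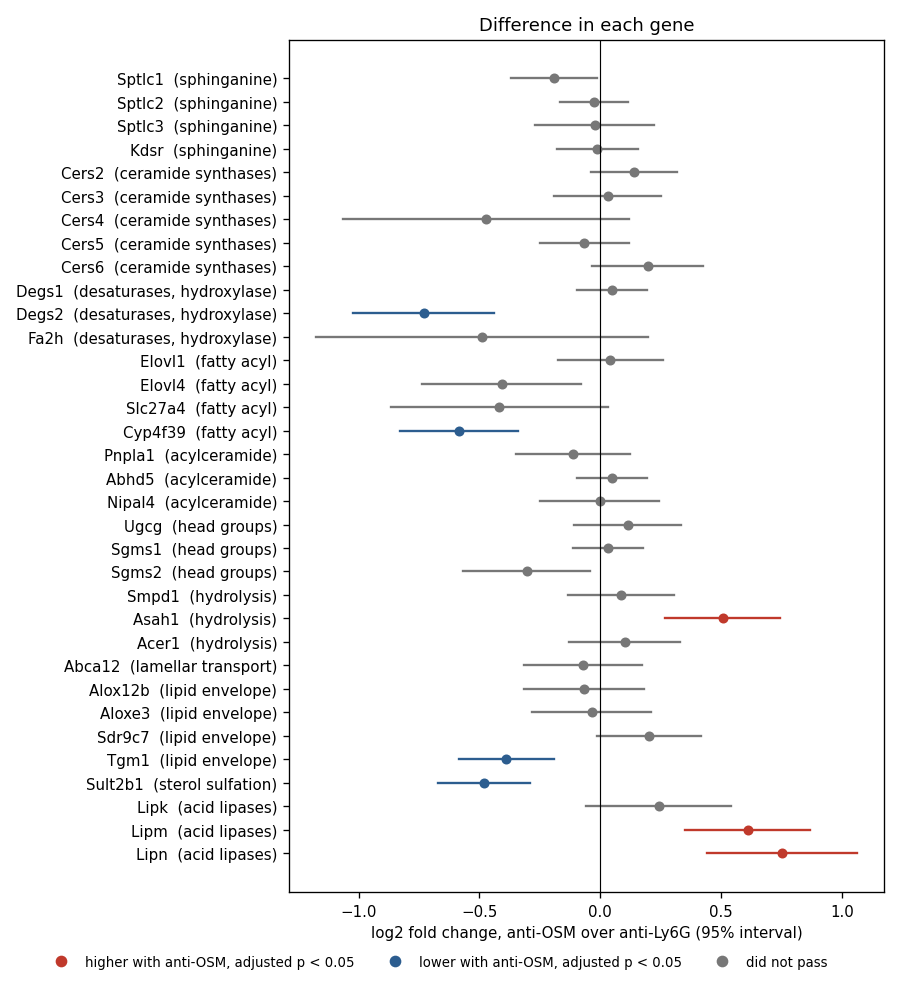
Log2 fold change of each of the 34 genes (horizontal axis, anti-OSM over anti-Ly6G) with its 95% interval, genes in the order of their roles. Coloured points passed the test, 3 higher and 4 lower with anti-OSM, and the intervals of Fa2h and Cers4 are the widest.

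Total counts were 52163179 to 59063578 in the anti-OSM libraries and 59381146 to 64122588 in the anti-Ly6G libraries, so that 3 counts equal 0.0466 to 0.0565 CPM (counts scaled to library size). The lowest count of any of the 34 genes in a library was 402, for Lipn. Along the first principal component (43.6% of the variance), anti-Ly6G replicate 3 (14.9) lay between the anti-OSM libraries (-34.7 to -26.6) and anti-Ly6G replicates 1 and 2 (38.6 and 39.3). The keratinocyte markers were all detected, as the tissue label requires. Their lists did not move as one: 3 of 7 basal markers were lower with anti-OSM, 0 of 8 suprabasal markers passed, and 1 of 8 granular markers, Ivl, was higher. Of the 8 markers of stressed keratinocytes 4 were lower, as were 7 of 8 of muscle, 6 of 7 of cartilage, 2 of 8 of hair follicle, 2 of 12 of sebocytes and 1 of 8 of adipocytes. Higher with anti-OSM were 4 of 7 fibroblast, 3 of 7 leukocyte and 1 of 5 Schwann cell markers, and 0 of 6 endothelial and 0 of 5 melanocyte markers passed. In whole skin, fewer cells of a type and less RNA per cell cannot be told apart. Whether replicates were separate mice is not stated in the labels, and a p-value here reflects only how these libraries vary.

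The 4 promoters below belong to genes that passed the test. Lipn and Lipm are neighbours that were both higher with anti-OSM, and Degs2 and Cyp4f39 are the genes that passed in every alternative tried. Each sequence runs from 250 bases before a RefSeq transcription start to 50 after it (RefSeq, GRCm38.p6), 5′ to 3′ on the gene's strand. That start is the 5′ bound of the annotated gene for Lipm and Degs2, and lies 300 bases inside it for Lipn and 26 bases inside it for Cyp4f39. Capitals mark matches to the AP-1 motif TGANTCA or the AP-2 motif GCCNNNGGC, searched on both strands. The regions are chr19:34067108-34067407 on the plus strand for Lipn, chr19:34100693-34100992 on the plus strand for Lipm, chr12:108702257-108702556 on the minus strand for Degs2 and chr17:32452473-32452772 on the plus strand for Cyp4f39.
Lipn: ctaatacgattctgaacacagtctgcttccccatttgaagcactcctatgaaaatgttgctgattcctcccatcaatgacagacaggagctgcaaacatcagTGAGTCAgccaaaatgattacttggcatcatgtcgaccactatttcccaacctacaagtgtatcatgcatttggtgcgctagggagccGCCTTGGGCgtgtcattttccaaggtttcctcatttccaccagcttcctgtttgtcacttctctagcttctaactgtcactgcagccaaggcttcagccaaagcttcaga
Lipm: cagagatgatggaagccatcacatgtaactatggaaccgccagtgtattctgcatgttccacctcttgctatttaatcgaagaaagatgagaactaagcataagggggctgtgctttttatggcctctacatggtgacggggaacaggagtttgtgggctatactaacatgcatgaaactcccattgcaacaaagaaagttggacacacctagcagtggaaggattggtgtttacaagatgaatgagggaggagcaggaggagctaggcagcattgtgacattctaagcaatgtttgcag
Degs2: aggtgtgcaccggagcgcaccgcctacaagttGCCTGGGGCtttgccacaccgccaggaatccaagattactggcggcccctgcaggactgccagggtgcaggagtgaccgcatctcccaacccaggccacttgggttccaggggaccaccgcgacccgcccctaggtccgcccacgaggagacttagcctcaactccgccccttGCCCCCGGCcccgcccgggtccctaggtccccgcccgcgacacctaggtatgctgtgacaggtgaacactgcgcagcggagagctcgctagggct
Cyp4f39: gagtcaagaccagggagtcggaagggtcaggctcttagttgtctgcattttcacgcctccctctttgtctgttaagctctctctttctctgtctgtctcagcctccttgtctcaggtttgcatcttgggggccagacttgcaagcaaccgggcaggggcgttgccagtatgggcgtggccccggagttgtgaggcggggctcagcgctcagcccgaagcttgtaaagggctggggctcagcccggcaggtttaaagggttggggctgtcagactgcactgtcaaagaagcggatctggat
Counted from the start used for its window, at 34067358, Lipn has TGAGTCA at position -148 and GCCTTGGGC at -60, both within the annotated gene. The Degs2 window holds GCCTGGGGC at -218 and GCCCCCGGC at -45, and the Lipm and Cyp4f39 windows hold neither motif. RefSeq promoters were found for 30 of the 34 genes, 42 windows in all, so some genes count more than once below. The AP-1 motif was in 5 of the 42 (11.9%) and in 7.81% of all 32851 promoter windows. The AP-2 motif was in 15 of the 42 (35.7%) and in 16.6% of all windows. The nuclear receptor core sequence AGGTCA was in 10 of the 42 (23.8%) and in 16.3% of all windows. A pair of AGGTCA 3 bases apart was in 0 of the 42 and in 2 of all windows. The shares were not tested against each other. These matches describe the letters of the windows, and binding was not measured.

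In TPM, which scales by gene length, levels spanned 100.7-fold, with a median of 75.6 TPM over the genes. Elovl4, which elongates the ultra-long acyl chain of acylceramides, was the most abundant at 823 TPM averaged over the 6 libraries. Fa2h, the fatty acid 2-hydroxylase, came next at 308 TPM, with every library below those of Elovl4, and the desaturase Degs1 after it at 211 TPM, within the range of Fa2h. Lipn was the least abundant at 8.17 TPM. Of the 34 genes, 20 averaged over 50 TPM.

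**Figure D2:**
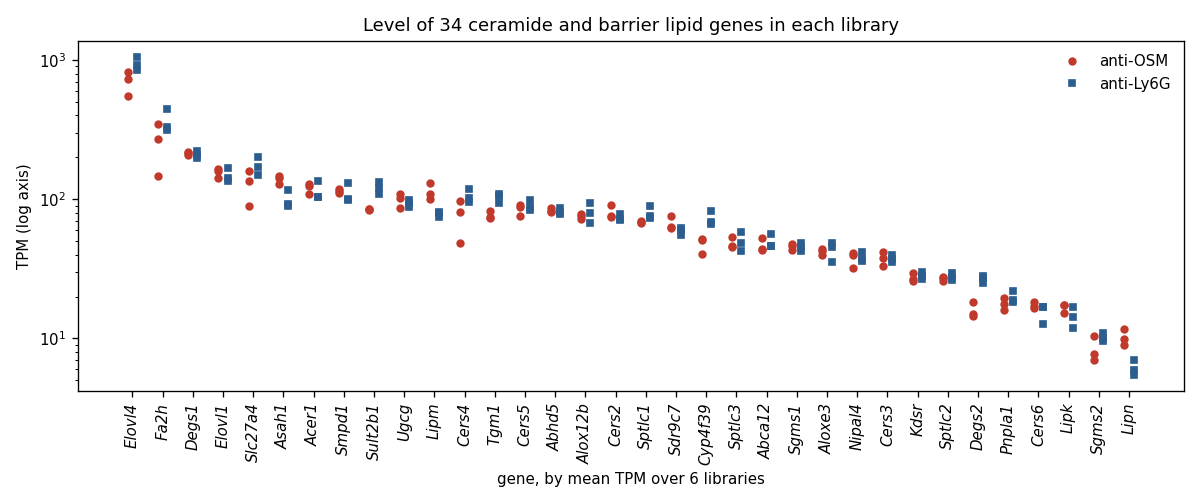
TPM of each of the 34 genes in each library (vertical log axis), ordered by the mean over the 6 libraries, with anti-OSM circles left of anti-Ly6G squares. Elovl4 stands highest at a mean of 823 TPM and Lipn lowest at 8.17 TPM, and the spread of Fa2h, Cers4 and Slc27a4 within the anti-OSM group is visibly wide.

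The first step joins serine and palmitoyl-CoA, and none of its 4 genes passed. Sptlc1, the shared subunit of serine palmitoyltransferase, had 84.4, 84.3 and 86.3 CPM in anti-OSM libraries 1, 2 and 3, against 96.4, 107 and 88.1 CPM in anti-Ly6G libraries 1, 2 and 3. Every anti-OSM library was below every anti-Ly6G library, and the nearest values were close. The log2 fold change of Sptlc1 was -0.19 (SE 0.08, adjusted p = 0.144, edgeR), and without anti-Ly6G replicate 3 its adjusted p was 0.0490 (range 0.0490 to 0.550 over 17 alternatives). The catalytic subunit Sptlc2, the subunit Sptlc3 and the reductase Kdsr had log2 fold changes of -0.03, -0.02 and -0.01 (adjusted p of 0.822, 0.915 and 0.933).

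None of the 5 ceramide synthases, which add the fatty acid to the sphingoid base, passed. By mean TPM over the 6 libraries Cers4 was the highest synthase (90.4 TPM), but with anti-OSM its 75.6 TPM was below the 84.7 TPM of Cers5 and the 80.2 TPM of Cers2. Cers4 had 282, 226 and 135 CPM with anti-OSM, against 289, 331 and 273 CPM with anti-Ly6G. Anti-OSM replicate 1 overlapped the anti-Ly6G libraries, and anti-OSM replicate 3 was the lowest of all. Its means were 215 ± 74.0 CPM with anti-OSM and 298 ± 30.4 CPM with anti-Ly6G (SD, n = 3 each), and the log2 fold change (-0.47, SE 0.25) did not pass (adjusted p = 0.265). Cers3, the synthase that handles the ultra-long acyl chains of acylceramide, had 51.2, 59.7 and 66.9 CPM with anti-OSM, against 56.9, 56.0 and 61.2 CPM with anti-Ly6G, which overlapped. Cers2, Cers5 and Cers6, synthases of shorter or of very long chains, had log2 fold changes of 0.14, -0.07 and 0.20 (adjusted p of 0.281, 0.636 and 0.239).

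The desaturases turn dihydroceramide into ceramide, and Degs2 also adds a hydroxyl group that makes phytoceramide. Degs2 (gene 70059, chr12:108686792-108702306, GRCm38) had 9.27, 10.2 and 12.5 CPM with anti-OSM, against 19.3, 17.8 and 16.0 CPM with anti-Ly6G. All 3 anti-OSM libraries were below all 3 anti-Ly6G libraries. The means were 10.7 ± 1.64 CPM with anti-OSM and 17.7 ± 1.63 CPM with anti-Ly6G (SD, n = 3 each), a ratio of 0.603 (log2 fold change -0.73, SE 0.13, adjusted p = 0.0125). Degs1, the widely expressed desaturase, had log2 fold change 0.05 (95% interval -0.09 to 0.20, adjusted p = 0.642). Degs2 made up 6.92% ± 0.66 of the summed TPM of these genes with anti-OSM and 11.4% ± 1.01 with anti-Ly6G (SD, n = 3 each), and the shares did not overlap. Degs2 passed in all 6 fits that each left out 1 library (adjusted p of 0.00821 to 0.0496). Its gene overlaps 4783 bases of the long noncoding RNA Gm33467, which was not tested, and 1725 bases of Evl, which had a log2 fold change of 0.26 (adjusted p = 0.123), and since the sources used here do not say whether strand was counted, reads of the overlap cannot be told apart.

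Fa2h had 409, 327 and 181 CPM with anti-OSM, against 387, 513 and 387 CPM with anti-Ly6G. The groups overlapped, and anti-OSM replicate 3 was the lowest. The means were 306 ± 115 CPM with anti-OSM and 429 ± 72.4 CPM with anti-Ly6G (SD, n = 3 each), and the log2 fold change (-0.49, SE 0.29) did not pass (adjusted p = 0.317).

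Among the genes for the fatty acyl chain, Cyp4f39 passed. It is the mouse counterpart of the human omega-hydroxylase CYP4F22, which adds the terminal hydroxyl group of acylceramides. Cyp4f39 (gene 320997, chr17:32452697-32493320) had 64.2, 63.9 and 52.1 CPM with anti-OSM, against 87.8, 101 and 81.7 CPM with anti-Ly6G. The groups did not overlap, and the means were 60.0 ± 6.91 CPM with anti-OSM and 90.1 ± 9.72 CPM with anti-Ly6G (SD, n = 3 each). The log2 fold change was -0.59 (SE 0.11, adjusted p = 0.0141), a ratio of 0.667, and Cyp4f39 passed in all 6 fits that each left out 1 library (adjusted p of 0.00720 to 0.0473).

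Elovl4 (gene 83603, chr9:83778692-83806305) had 1199, 1086 and 822 CPM with anti-OSM, against 1391, 1504 and 1228 CPM with anti-Ly6G. The groups did not overlap, anti-OSM replicate 1 and anti-Ly6G replicate 3 being closest. The means were 1036 ± 194 CPM with anti-OSM and 1374 ± 139 CPM with anti-Ly6G (SD, n = 3 each), and the log2 fold change of -0.41 (SE 0.14, adjusted p = 0.103) did not pass. Over the alternatives its adjusted p ranged from 0.0196 to 0.252, and with DESeq2 it passed (adjusted p = 0.0196). Slc27a4, a fatty acid transport protein and acyl-CoA synthetase, had 306, 267 and 179 CPM with anti-OSM, against 299.9, 380 and 325 CPM with anti-Ly6G, which overlapped (log2 fold change -0.42, adjusted p = 0.200). Elovl1, the elongase of shorter chains, had a log2 fold change of 0.04 (adjusted p = 0.805).

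The genes with the widest spread within a group were Fa2h, Cers4 and Slc27a4, whose highest anti-OSM library was 2.26, 2.08 and 1.72 times the lowest. They were the 3 of the 34 genes above 1.5 within anti-OSM, with 0 above it within anti-Ly6G. In each of them anti-OSM replicate 3 was lowest, and leaving it out gave log2 fold changes of -0.23 for Fa2h, Cers4 and Slc27a4 and -0.27 for Elovl4. The summed level of 12 sebocyte markers was 5095, 4257 and 2901 CPM with anti-OSM, against 5590, 6435 and 5657 CPM with anti-Ly6G. Most of that sum was Scd1, with 3570, 2875 and 1962 CPM with anti-OSM, against 3734, 4462 and 3913 CPM with anti-Ly6G. The 12 sebocyte markers all had negative fold changes (median -0.48), and 2 of them, Soat1 and Krt79, were lower. Each was lowest in anti-OSM replicate 3. Mgst1 and Mc5r were highest in anti-OSM replicate 1, Awat2 in anti-Ly6G replicate 3, and Elovl3 and Dgat2l6 in anti-Ly6G replicate 1. The other sebocyte markers were highest in anti-Ly6G replicate 2. The 8 adipocyte markers summed to 455, 443 and 397 CPM with anti-OSM, against 405, 465 and 448 CPM with anti-Ly6G. Both sums were lowest in anti-OSM replicate 3 and highest in anti-Ly6G replicate 2. So were 7 of the 34 genes, namely Fa2h, Cers4, Slc27a4, Elovl4, Cyp4f39, Cers5 and Sgms2. Anti-Ly6G replicate 2 was the highest library for 16 of the 34 genes, and anti-OSM replicate 3 the lowest for 7. The share of all tested genes lowest in anti-OSM replicate 3 and highest in anti-Ly6G replicate 2 was not computed. Hair follicle, Schwann cell and melanocyte sums were also lowest in anti-OSM replicate 3, and suprabasal and cartilage sums also highest in anti-Ly6G replicate 2. The suprabasal list shared its lowest and highest library with 5 of the 34 genes and the leukocyte list with 3. The part of any of these lists in these values was not tested.

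**Figure D3:**
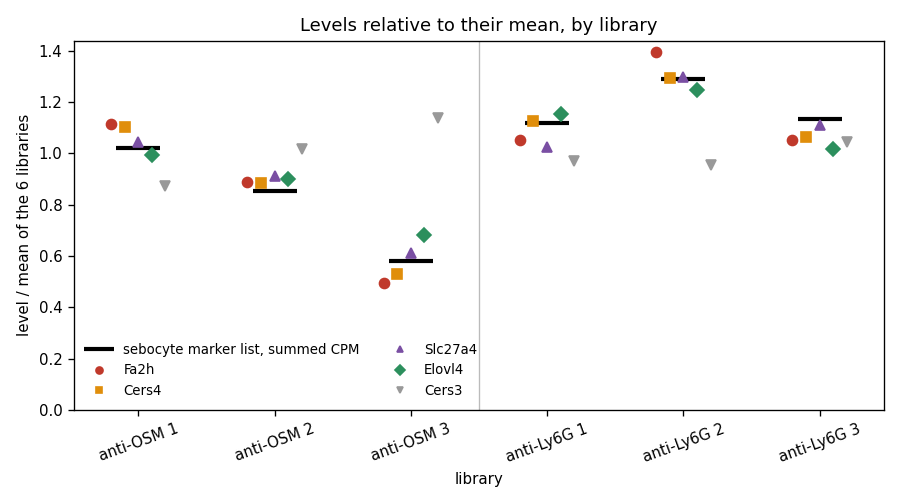
Level in each library divided by the mean of the 6 libraries, for Fa2h, Cers4, Slc27a4, Elovl4 and Cers3 (markers, CPM) and for the summed CPM of 12 sebocyte markers (black bars). Anti-OSM replicate 3 is lowest and anti-Ly6G replicate 2 highest for the marker list, which has 2901 and 6435 CPM there, and for all the genes plotted except Cers3. The genes other than Cers3 are among the 7 that share both libraries with the list, so the choice of genes fixed this match. The adipocyte list, not drawn, shares both libraries with the same 7 genes.

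**Figure D4:**
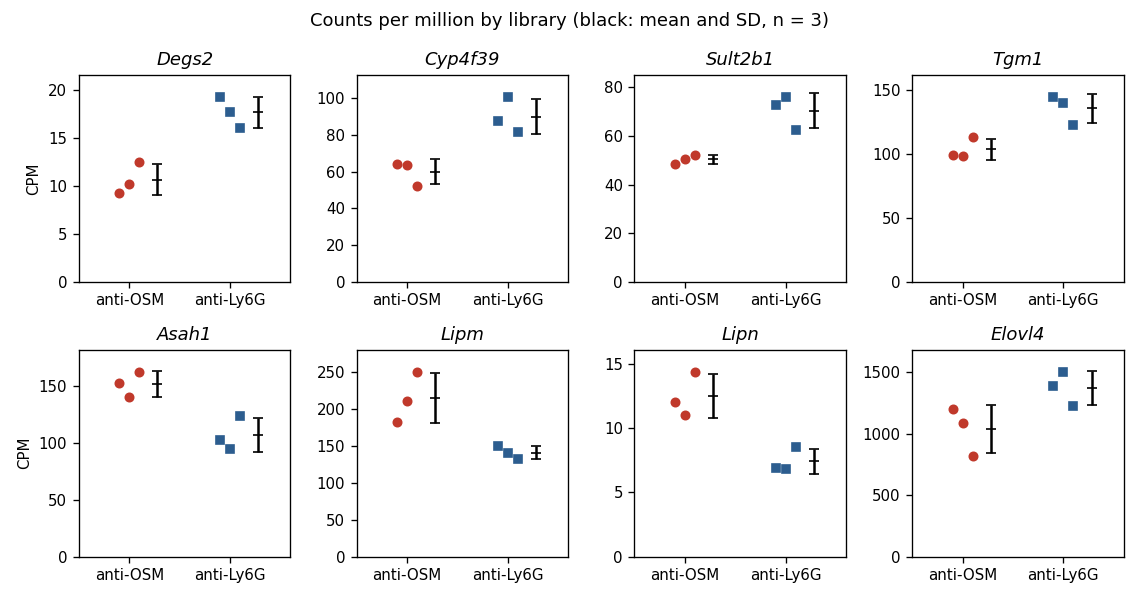
CPM in each library, with the mean and SD (n = 3) in black, of the 7 genes that passed the test and of Elovl4, which did not pass but whose groups do not overlap. The anti-OSM values lie below the anti-Ly6G values in the Degs2, Cyp4f39, Sult2b1, Tgm1 and Elovl4 panels and above them in the Asah1, Lipm and Lipn panels.

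None of the genes that assemble acylceramide passed. Pnpla1, which transfers linoleate onto the hydroxyl group, had a log2 fold change of -0.11 (adjusted p = 0.517). Its cofactor Abhd5 had 123, 123 and 134 CPM with anti-OSM, against 121, 126 and 121 CPM with anti-Ly6G, which overlapped, with log2 fold change 0.05 (SE 0.06, adjusted p = 0.658). Nipal4, an ichthyosis gene of the same step, had log2 fold change -0.00 (95% interval -0.25 to 0.24, adjusted p = 0.994).

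Nor did the genes for head groups pass. Ugcg, which makes glucosylceramide, the form stored in lamellar granules, had 181, 158 and 198 CPM with anti-OSM, against 174, 151 and 172 CPM with anti-Ly6G. The groups overlapped, and the log2 fold change was 0.11 (SE 0.10, adjusted p = 0.486). The sphingomyelin synthases Sgms1 and Sgms2 had log2 fold changes of 0.03 and -0.30 (adjusted p of 0.782 and 0.124).

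In hydrolysis, Asah1 was higher with anti-OSM. It encodes acid ceramidase, the lysosomal enzyme that splits ceramide into a sphingoid base and a fatty acid. Asah1 (gene 11886, chr8:41340646-41397644) had 152, 140.3 and 162 CPM with anti-OSM, against 103, 94.3 and 123 CPM with anti-Ly6G. The anti-OSM libraries were above the anti-Ly6G libraries without overlap. The means were 152 ± 11.0 CPM with anti-OSM and 107 ± 14.9 CPM with anti-Ly6G (SD, n = 3 each), a ratio of 1.42 (log2 fold change 0.51, SE 0.11, adjusted p = 0.0209). It no longer passed when anti-OSM replicate 1, anti-OSM replicate 3, anti-Ly6G replicate 1 or anti-Ly6G replicate 2 was left out (adjusted p of 0.0511 to 0.0828), nor with keratinocyte-marker scaling (0.0506, range over the alternatives 0.000307 to 0.0828). Asah1 overlaps 8464 bases of Frg1, which had a log2 fold change of 0.09 (adjusted p = 0.446). The sphingomyelinase Smpd1 and the alkaline ceramidase Acer1 had log2 fold changes of 0.09 and 0.10 (adjusted p of 0.602 and 0.548). Leukocyte markers summed to 2071, 2200 and 2278 CPM with anti-OSM, against 1252, 1295 and 1759 CPM with anti-Ly6G, and 3 of the 7, Ptprc, Csf1r and H2-Ab1, were higher. Fibroblast markers summed to 9974, 9923 and 9615 CPM with anti-OSM, against 7129, 5764 and 8327 CPM with anti-Ly6G, and 4 of the 7 were higher. Neither sum overlapped between the groups, and the part of either list in the differences of Asah1, Lipm and Lipn was not tested.

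Abca12, the transporter that loads glucosylceramide into lamellar granules, had 173, 174 and 216 CPM with anti-OSM, against 191, 218 and 182 CPM with anti-Ly6G. The groups overlapped and the log2 fold change was -0.07 (SE 0.11, adjusted p = 0.705).

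Of the genes that oxidise acylceramide and bind it to the envelope, Tgm1 was lower with anti-OSM. It encodes the transglutaminase that cross-links envelope proteins. Tgm1 (gene 21816, chr14:55700009-55713921) had 99.0, 98.5 and 113 CPM with anti-OSM, against 144, 139 and 123 CPM with anti-Ly6G. The groups did not overlap, and the means were 104 ± 8.23 CPM with anti-OSM and 135 ± 11.5 CPM with anti-Ly6G (SD, n = 3 each). The log2 fold change was -0.39 (SE 0.09, adjusted p = 0.0255), a ratio of 0.764. It no longer passed when anti-OSM replicate 1, anti-OSM replicate 2, anti-Ly6G replicate 1 or anti-Ly6G replicate 2 was left out (adjusted p of 0.0665 to 0.0954), nor with keratinocyte-marker scaling (0.0985, range over the alternatives 0.00106 to 0.0985). The lipoxygenases Alox12b and Aloxe3, neighbours on chromosome 11 that act in sequence on the linoleate of acylceramide, had log2 fold changes of -0.07 and -0.04 (adjusted p of 0.735 and 0.857). Sdr9c7, a dehydrogenase that acts after them, had 85.5, 86.9 and 106 CPM with anti-OSM, against 84.1, 82.7 and 75.2 CPM with anti-Ly6G. These did not overlap, but the log2 fold change of 0.20 did not pass (adjusted p = 0.197).

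Sult2b1, which sulfates cholesterol in the upper epidermis, was lower with anti-OSM. Sult2b1 (gene 54200, chr7:45729981-45759672) had 48.6, 50.5 and 52.4 CPM with anti-OSM, against 72.9, 76.1 and 62.5 CPM with anti-Ly6G. All 3 anti-OSM libraries were below the lowest anti-Ly6G library. The means were 50.5 ± 1.91 CPM with anti-OSM and 70.5 ± 7.12 CPM with anti-Ly6G (SD, n = 3 each), a ratio of 0.716 (log2 fold change -0.48, SE 0.08, adjusted p = 0.0122). Without anti-OSM replicate 1 the adjusted p was 0.0541, the highest of its range over the alternatives (3.26e-05 to 0.0541). The gene overlaps 8885 bases of the long noncoding RNA Gm31597, which had an adjusted p of 0.883. Marker sums of several kinds differed between the groups beside these genes. The 8 stressed keratinocyte markers summed to 2200, 3025 and 4343 CPM with anti-OSM, against 8642, 6156 and 9413 CPM with anti-Ly6G, and the 7 basal markers to 9834, 12280 and 11851 CPM with anti-OSM, against 15159, 14583 and 14401 CPM with anti-Ly6G. Neither sum overlapped between the groups, whereas the 8 suprabasal markers, at 17652, 20219 and 20649 CPM with anti-OSM, against 21198, 24616 and 17045 CPM with anti-Ly6G, overlapped. Hair follicle markers summed to 100.5, 122 and 95.7 CPM with anti-OSM, against 742, 405 and 369 CPM with anti-Ly6G. Most of that sum was Tchh, with 87.6, 111 and 85.8 CPM with anti-OSM, against 634, 374 and 350 CPM with anti-Ly6G. The groups overlapped for 4 of the 8 follicle markers tested. Muscle markers summed to 2768, 2835 and 3315 CPM with anti-OSM, against 4405, 4144 and 4524 CPM with anti-Ly6G, and cartilage markers to 255, 243 and 246 CPM with anti-OSM, against 380, 423 and 384 CPM with anti-Ly6G. These 3 sums did not overlap either, and the part of any of these lists in the lower Degs2, Cyp4f39, Tgm1 and Sult2b1 was not tested.

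The acid lipases Lipk, Lipn and Lipm lie side by side over 114 kb of chromosome 19 (34008254 to 34122687) and are expressed late in keratinocyte differentiation. Lipm (gene 78753, chr19:34100943-34122687) had 183, 211 and 250.5 CPM with anti-OSM, against 150.1, 141 and 132 CPM with anti-Ly6G. The groups did not overlap, and the means were 215 ± 33.9 CPM with anti-OSM and 141 ± 9.24 CPM with anti-Ly6G (SD, n = 3 each), a ratio of 1.53. The log2 fold change of Lipm was 0.61 (SE 0.11, adjusted p = 0.0149).

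Lipn (gene 70166, chr19:34067058-34085946), whose human counterpart is an ichthyosis gene, had 12.0, 11.0 and 14.4 CPM with anti-OSM, against 6.90, 6.83 and 8.51 CPM with anti-Ly6G. The groups did not overlap, and the means were 12.5 ± 1.72 CPM with anti-OSM and 7.41 ± 0.949 CPM with anti-Ly6G (SD, n = 3 each), a ratio of 1.68. The log2 fold change of 0.75 (SE 0.14, adjusted p = 0.0138) was the most positive of the 34. Lipk had 16.0, 19.0 and 18.9 CPM with anti-OSM, against 15.6, 17.4 and 12.6 CPM with anti-Ly6G, which overlapped (log2 fold change 0.24, 95% interval -0.06 to 0.54, adjusted p = 0.264). The neighbours Ankrd22, which overlaps the end of Lipm by 139 bases, and Stambpl1 had log2 fold changes of 0.04 and 0.10 (adjusted p of 0.850 and 0.541), and Lipf had 0 counts in the 6 libraries. Lipn lost its call without anti-OSM replicate 3 (adjusted p = 0.0535, range over the alternatives 7.00e-05 to 0.0535) or anti-Ly6G replicate 1 (0.0528), and Lipm without anti-Ly6G replicate 2 (0.0512, range 2.72e-05 to 0.0512). The 8 granular keratinocyte markers summed to 5851, 5909 and 6681 CPM with anti-OSM, against 5603, 5983 and 4696 CPM with anti-Ly6G, which overlapped, and their part in the lipase values was not tested. The differences among these lipases were not tested.

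Across the rest of the pathway, 104 of 108 listed genes were tested, and 10 were higher and 9 lower with anti-OSM (18.3% in all, median log2 fold change -0.01). Over all tested genes 12.1% passed, 5.81% higher and 6.27% lower, and the counts of each list below stand beside that share. Of the other sphingolipid genes, 4 of 31 were higher and 0 lower. In total this share is near the 12.1% of all tested genes, but all 4 were higher, against 5.81% of all tested genes. Sptssa, a small subunit of serine palmitoyltransferase, had 280 ± 12.0 CPM with anti-OSM and 224 ± 21.9 CPM with anti-Ly6G (SD, n = 3 each; log2 fold change 0.32, adjusted p = 0.0445). Psap, the precursor of the saposins that present sphingolipids to lysosomal enzymes, had 1268 ± 83.5 CPM with anti-OSM and 959 ± 133 CPM with anti-Ly6G (0.40, adjusted p = 0.0496). Gm2a, a lysosomal activator protein, had 127 ± 4.23 CPM with anti-OSM and 88.5 ± 13.2 CPM with anti-Ly6G (0.52, adjusted p = 0.0169). Arsa, a lysosomal sulfatase, was also higher with anti-OSM (log2 fold change 0.36, adjusted p = 0.0333).

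Of 29 other fatty acyl genes, 2 were higher and 3 lower. Hacd4, an elongation dehydratase, and Acsbg1, an acyl-CoA synthetase, had log2 fold changes of 1.06 and 0.36 (adjusted p of 0.0269 and 0.0335). The acyl-CoA synthetase Acsl3, the desaturase Scd2 and the triglyceride enzyme Dgat1 had log2 fold changes of -0.52, -0.59 and -0.67 (adjusted p of 0.00828, 0.0189 and 0.0200). Of 18 other stratum corneum genes, 3 were higher and 4 lower. Alox15, a lipoxygenase of macrophages and eosinophils, had 74.8 ± 12.6 CPM with anti-OSM and 31.1 ± 8.78 CPM with anti-Ly6G (SD, n = 3 each; log2 fold change 1.27, adjusted p = 0.0142). The epidermal lipoxygenase Alox12e had 433 ± 66.6 CPM with anti-OSM and 220 ± 58.9 CPM with anti-Ly6G (0.98, adjusted p = 0.0297). The lysosomal lipase Lipa was higher with anti-OSM (0.61, adjusted p = 0.0314). The transglutaminases Tgm3 and Tgm5 had log2 fold changes of -0.33 and -0.32 (adjusted p of 0.0335 and 0.0255), the protease inhibitor Spink5 of -0.60 (0.0217) and the protease Klk7 of -0.49 (0.0419). Of 26 regulators, Ahr, a ligand-activated receptor, was higher (0.44, adjusted p = 0.0108), and Srebf2, the sterol regulator, and Cebpb were lower (-0.36 and -0.31, adjusted p of 0.0250 and 0.0490).

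The calls of these other genes depended on single libraries. Leaving out anti-OSM replicates 1, 2 and 3 in turn left 3, 4 and 2 genes higher and 4, 1 and 3 lower. Leaving out anti-Ly6G replicates 1, 2 and 3 in turn left 2, 3 and 11 higher and 2, 3 and 12 lower. Acsl3 and Ahr passed in all 6 of these fits, Alox15 in 5, and Sptssa and Cebpb in 0, and the other 14 genes passed in 1 to 3. Of the 11 other settings, Psap passed in 6 and Sptssa and Cebpb in 7.

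**Figure D5:**
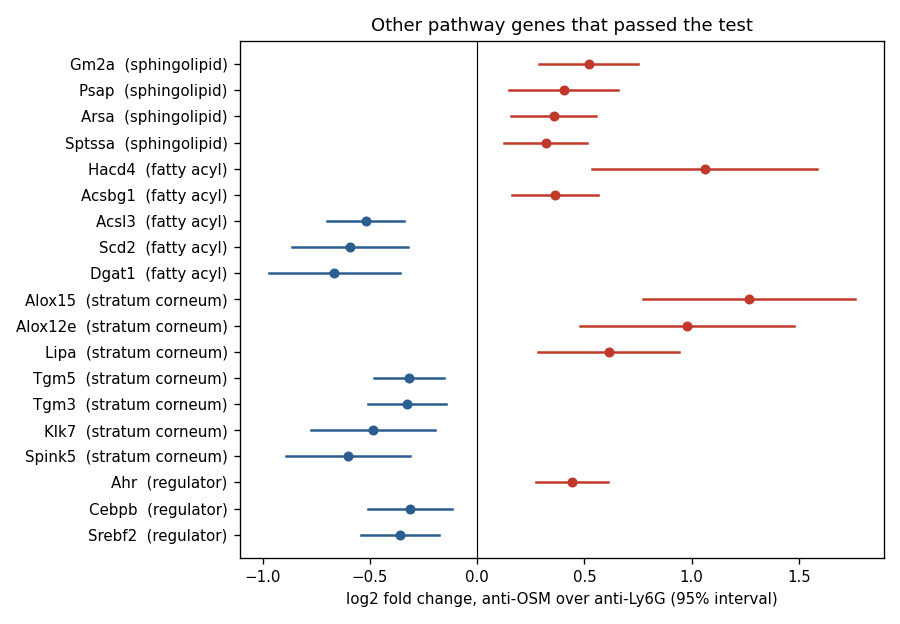
Log2 fold change (horizontal axis, anti-OSM over anti-Ly6G) with its 95% interval of the 19 other pathway genes that passed the test, grouped by list. The 4 sphingolipid genes that passed, of 31 tested, are higher with anti-OSM. Alox15 has the highest value at 1.27 and Dgat1 the lowest at -0.67.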

How the data were processed

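Per the file headers, each library has columns of read counts, FPKM and TPM. The deposited counts were whole numbers and were the values tested. The TPM values deposited by the authors were used for levels and isozyme shares, and the FPKM values deposited by the authors only to check columns. The submitters' processing notes give no roles but name HISAT2 2.1.0, Trimmomatic 0.38, edgeR 3.40.2 and StringTie 2.1.3b, with mm10 among the builds. The counting method and use of strand are not given in the sources used here.

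All 19915 genes that passed filterByExpr were fitted together with edgeR 4.0.16 in R 4.3.3 (TMM scaling, robust quasi-likelihood, 2-sided F-test, Benjamini-Hochberg over all tested genes, threshold 0.05), with 6 libraries and no covariate. CPM uses TMM-scaled totals. The SE was computed from the F statistic and log2 fold change, and intervals are 95%. The fit was tested on simulated data. There the false share of its calls was above the 0.05 threshold, and most 1.5-fold changes were missed. No library was a duplicate of another in its group (chi-square per gene of at least 26.2). The 34 genes and the pathway and marker lists were chosen with earlier results of these data known, so no list was tested. Per-library values are given for genes that passed, for genes without overlap whose log2 fold change was at least 0.3 in size, and for the gene of each role with the highest mean TPM over the 6 libraries, with Cers3, Slc27a4, Sdr9c7 and Lipk added after their values were seen. Of each pathway list, the genes that passed are named, up to 8. Alternatives were other scalings and filters, a non-robust fit, DESeq2 1.42.0, a replicate block and leaving out each library. With limma 3.58.1, limma-voom was run on the counts and limma-trend on log2(TPM + 0.1).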

Additional observations from a re-analysis of the deposited data

How the results depend on the processing

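Over the 34 genes and 17 alternatives, 538 of 578 values kept direction and side of the threshold, 14 lost the call, 3 gained one and 23 changed sign. The 23 were of 10 genes that did not pass, 0 of them passed under the alternative, and their log2 fold changes reached 0.11 at most in size. With keratinocyte-marker scaling the changed values were 0.052 for Sptlc2, 0.072 for Sptlc3, 0.070 for Kdsr, 0.021 for Cers5, 0.075 for Nipal4, 0.014 for Abca12, 0.023 for Alox12b and 0.048 for Aloxe3, and with limma-trend -0.00050 for Cers3. Leaving out each library gave -0.054 to 0.010 for Sptlc2, -0.13 to 0.077 for Sptlc3, -0.064 to 0.029 for Kdsr, -0.068 to 0.13 for Cers3, -0.033 to 0.15 for Elovl1, -0.079 to 0.11 for Nipal4, -0.19 to 0.0084 for Abca12, -0.18 to 0.036 for Alox12b and -0.15 to 0.054 for Aloxe3. Leaving out each library gave 1 to 3 of the 34 genes higher and 2 to 5 lower with anti-OSM, against 3 and 4. For the other pathway genes these fits gave 2 to 11 higher and 1 to 12 lower, against 10 and 9, and over all tested genes 240 to 1545 higher and 420 to 1447 lower, against 1157 and 1249. Keratinocyte-marker scaling gave 648 higher and 461 lower over all tested genes and 4 higher and 3 lower among the other pathway genes. Limma-trend on log2(TPM + 0.1) gave 732 higher over all tested genes and 5 higher among the other pathway genes, and DESeq2 gave 21 lower among the other pathway genes. The cause was not tested for any of these shifts.

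Deviations of same-numbered libraries from their group means had correlations of 0.01, 0.04 and 0.12. For anti-OSM replicates 2 and 3 the same-numbered anti-Ly6G library correlated most, but anti-OSM replicate 1 correlated more with anti-Ly6G replicate 2 (0.08). These values do not settle whether the numbers mark pairs, and the main fit did not use them as pairs. With the replicate block, 3 of the 34 genes were higher and 5 lower, Elovl4 being added (adjusted p = 0.0376, range over its alternatives 0.0196 to 0.252), with 11 and 12 among the other pathway genes, and 1325 and 1275 over all tested genes.

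With 3 libraries a group, the standard errors of the 34 genes ran from 0.06 to 0.29 on the log2 scale. Log2 fold changes of -0.49 in Fa2h (SE 0.29) and -0.47 in Cers4 (SE 0.25) did not pass, whereas -0.48 in Sult2b1 (SE 0.08) passed. The 95% intervals ran from -1.18 to 0.20 for Fa2h and from -1.06 to 0.12 for Cers4. The lowest count of any of the 34 genes in a library was 402.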
